A study of Mus musculus with 6 samples.

Results

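The mitochondrial ribosomal protein genes were followed in muscle stem cells cultured with or without 11,12-EET. The members were taken by gene name from a table of read counts: symbols of the form Mrpl or Mrps with a number and at most one letter a, b or c, plus Chchd1, Dap3, Ptcd3 and Aurkaip1, whose products are ribosomal proteins of the small subunit. This gave 82 of the 55494 rows of the table. The family itself was chosen by its EET against control fold changes in these same libraries, so its counts and folds in that contrast are given below as a description, with no test on the family. By the structure of the ribosome, 30 members belong to the small subunit and 51 to the large one. Mrps30 and Mrps18a are counted with the large subunit, where their proteins sit despite their names. Mrps36 is counted with neither subunit, since its product is a part of the 2-oxoglutarate dehydrogenase complex.

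The mitochondrial ribosome translates the mRNAs of the mitochondrial genome, which encode core subunits of the respiratory chain and of ATP synthase. Its rRNAs, mt-Rnr1 in the small subunit and mt-Rnr2 in the large one, come from the mitochondrial genome, while its proteins are encoded in the nucleus, made in the cytosol and imported. Quiescent muscle stem cells hold few mitochondria, and mitochondrial content grows when they are activated.

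The study cultured primary muscle stem cells (satellite cells, which express Pax7 and repair skeletal muscle) of wild-type mice for 2 days and sequenced poly(A) RNA in bulk. 11,12-EET is an epoxyeicosatrienoic acid, which cells form from arachidonic acid through cytochrome P450 epoxygenases and use as a lipid signal. The 3 control libraries came from cells cultured without it and the 3 EET libraries from cells cultured with it. The sources used here give no dose, no control medium and no age, sex or strain of the mice. Whether the replicates are separate mice or cultures is not stated in the labels. The p-values then measure only the spread between these samples, which may be technical.

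Library totals ran from 30371291 to 37243882 counts. Levels are given in CPM, read counts scaled to a common library size with TMM factors. A gene was called, and is said here to be higher, lower, to rise or to fall, where its adjusted p in edgeR's quasi-likelihood test over the 16097 genes with enough counts was under 0.05. Fold changes are log2 values of EET over control with their standard error. In bulk RNA, more cells of one type and more RNA per cell cannot be told apart. The 9 satellite cell markers summed to 3391 to 3693 CPM in controls and 3896 to 3982 CPM with EET, and 4 of them rose while Pax7 fell. Of 21 markers of endothelial, fibro-adipogenic, macrophage, mural and Schwann cells, 1 rose and 12 fell. Endothelial markers summed to 230 to 243 CPM in controls and 129 to 148 CPM with EET, mural and Schwann markers to 228 to 236 and 171 to 190 CPM. Fibro-adipogenic markers summed to 470 to 514 and 391 to 440 CPM, and macrophage markers to 280 to 312 and 172 to 351 CPM. Every macrophage marker was highest in EET 1 among the EET libraries. Lyz2 stood there at 283 CPM beside 145 and 128 CPM in EET 2 and 3, and Adgre1 at 23.2 beside 5.47 and 7.52 CPM. The 5 mature fibre markers, of which 3 rose, summed to 32.3 to 44.1 and 51.7 to 78.5 CPM. Calls of markers changed in a fit with each library's trend on mRNA length and GC content removed. Of the satellite cell markers 1 was then higher and 1, Myod1 at -0.16, lower, while Pax7, at -0.05, was not called. Of the mature fibre markers 1 was higher. No marker of the other lists was higher, and 4 endothelial, 2 fibro-adipogenic, 2 macrophage and 3 mural and Schwann markers were lower. No marker was at 0 in any library, and the part of these cells in the values below was not tested.

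Nuclear genes of mitochondrial proteins are known to be reached by the transcription factors NRF1, GABP (of the ETS family) and YY1, so the promoters of the members were searched for their short motifs. RefSeq windows on GRCm38.p6, from 250 bases before to 50 bases after the start, were at hand for 71 members. The NRF1 motif GCGCANGCG, read on both strands, was in 16 of them, 22.5%. It was in 7.03% of all 27025 genes with a window and in 14.1% of the 11468 of these that were tested. A gene counts where any of its windows holds the motif. The ETS motif CCGGAAG was in 26 members, 36.6% beside 9.93% of all these genes and 18.3% of the tested ones. The YY1 motif AAGATGGCG was in 9 members, 12.7% beside 1.64% and 3.2%. At least 1 of the 3 motifs was in 43 members, 60.6% beside 16.5% of all these genes and 31.2% of the tested ones. CACGTG, the E-box read by Myc and related factors, was in 6 members, 8.45% beside 8.09% and 11.5%. These matches describe the letters of the windows and are not binding sites seen in these cells.

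The 5 stretches below are upstream parts of RefSeq promoters on GRCm38.p6 that hold no annotated exon, written 5′ to 3′ on the strand of the gene, with motif matches in capitals. Mrpl52 (chr14:54426659-54426908, plus strand), a large subunit gene with one of the 2 highest folds of its subunit, holds an ETS match. Mrpl12 (chr11:120484387-120484612, plus strand), an abundant member that rose strongly, holds an NRF1 match. Mrpl22 (chr11:58171414-58171660, plus strand) holds an ETS and an NRF1 match. Mrps2 (chr2:28467816-28468065, plus strand) and Ptcd3 (chr6:71908763-71909012, minus strand) are the 2 tested members that were not called, and no match was found in these stretches.
Mrpl52: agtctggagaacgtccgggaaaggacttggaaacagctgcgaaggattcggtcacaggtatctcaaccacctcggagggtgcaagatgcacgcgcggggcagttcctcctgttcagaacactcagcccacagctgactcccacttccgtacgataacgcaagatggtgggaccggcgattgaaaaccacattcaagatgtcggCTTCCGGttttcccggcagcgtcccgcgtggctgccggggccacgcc
Mrpl12: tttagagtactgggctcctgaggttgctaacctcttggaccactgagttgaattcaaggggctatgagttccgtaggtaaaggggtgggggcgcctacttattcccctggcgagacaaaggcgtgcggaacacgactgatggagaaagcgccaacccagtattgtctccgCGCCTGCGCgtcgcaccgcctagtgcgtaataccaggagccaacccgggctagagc
Mrpl22: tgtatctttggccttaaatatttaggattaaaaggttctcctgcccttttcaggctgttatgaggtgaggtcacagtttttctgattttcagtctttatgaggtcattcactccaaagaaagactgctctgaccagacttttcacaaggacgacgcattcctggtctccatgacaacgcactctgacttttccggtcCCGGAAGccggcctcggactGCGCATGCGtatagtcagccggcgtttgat
Mrps2: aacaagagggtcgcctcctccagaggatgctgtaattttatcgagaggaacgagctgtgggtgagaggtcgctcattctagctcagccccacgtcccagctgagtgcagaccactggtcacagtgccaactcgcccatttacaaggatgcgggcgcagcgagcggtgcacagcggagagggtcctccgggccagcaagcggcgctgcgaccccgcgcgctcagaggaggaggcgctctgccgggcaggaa
Ptcd3: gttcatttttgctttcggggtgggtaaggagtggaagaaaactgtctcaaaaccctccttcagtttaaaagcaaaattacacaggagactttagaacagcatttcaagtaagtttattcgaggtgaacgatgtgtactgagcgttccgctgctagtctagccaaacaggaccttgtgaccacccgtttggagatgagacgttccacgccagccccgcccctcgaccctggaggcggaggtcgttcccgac
The window of Ptcd3 has a YY1 match after the start, outside the stretch printed. The median log2 fold change was 0.85 in members with any of the NRF1, ETS and YY1 motifs and 0.84 in members without. With the ETS motif it was 0.95 and without it 0.80, with the NRF1 motif 0.83 and 0.87, with the YY1 motif 0.72 and 0.87, and with the E-box 1.10 and 0.84. Mrps2 had none of the 4 motifs in its window, and Mrpl22, which had both ETS and NRF1 matches, had a fold of 0.82 ± 0.12.

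Nearly every member was higher with EET. Of the 81 members tested, 79 rose, 0 fell and 2 were not called, in edgeR as in DESeq2. Of all tested genes 24.6% were called higher and 23.3% lower. The median log2 fold change was 0.84 over members, with quartiles of 0.64 and 1.11, beside 0.005 over all genes tested. The members ran from 0.11 to 2.01. Of the 81 members 28 were called and at least 2-fold higher, beside 702 of all 16097 tested genes. All 3 EET libraries lay above all 3 controls in 81 of 81 members, as they did in 29.6% of tested genes. The lowest count of a tested member in a library was 111 and the highest 7619.

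**Figure D1:**
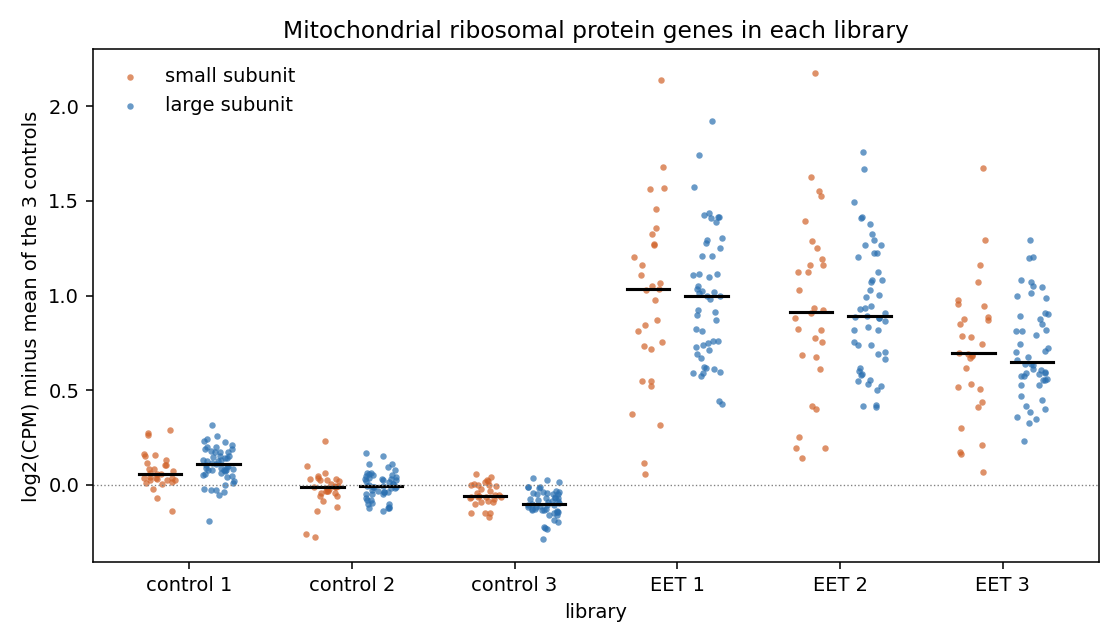
Each point is a member of the small (orange) or large (blue) subunit in one library, as log2 CPM minus its mean in the 3 controls; black bars are medians, and a small sideways scatter separates the points. The medians of both subunits are highest in EET 1 and lowest in EET 3 among the EET libraries, and highest in control 1 among the controls.

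The libraries of a group were not alike, and they kept one order over the family. EET 1 was the highest of all 6 libraries for 61 members, and EET 3 was the lowest of the EET libraries for 77. Control 1 was the highest control for 63 members and control 3 the lowest for 57. The members together took 2998, 2780 and 2660 CPM in the controls and 5140, 4944 and 4325 CPM in the EET libraries. Their sum was thus 2813 ± 171 CPM in controls and 4803 ± 425 CPM with EET (mean ± SD, n = 3 each), a ratio of 1.71, and the libraries of the groups did not overlap. As a share of all counts the members rose from 0.288 ± 0.0163% to 0.468 ± 0.0348%.

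The member with the largest change was Chchd1, on chromosome 14 from 20703006 to 20704425 in GRCm38, which encodes a CHCH-domain protein of the small subunit. It stood at 14.1, 13.5 and 14 CPM in the controls and at 60.9, 62.6 and 44.3 CPM with EET. The controls were nearly equal, and even the lowest EET library, EET 3, was far above them. Its mean rose from 13.8 ± 0.307 to 55.9 ± 10.2 CPM, a log2 fold change of 2.01 ± 0.12 (adjusted p = 3.92e-07).

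The other 3 members chosen by symbol differed in fold, from 0.15 to 1.06. Aurkaip1, a protein of the small subunit that is also known as a partner of Aurora kinase A, stood at 37.6, 35.8 and 35.0 CPM in controls and 80.9, 78.8 and 66.2 CPM with EET, a fold of 1.06 ± 0.09 (adjusted p = 1.13e-06). Dap3, a GTP-binding protein of the small subunit, stood at 110, 98.6 and 87.3 CPM and at 161, 158 and 140 CPM, a fold of 0.64 ± 0.09. In both genes the groups did not overlap and EET 3 was the lowest EET library. Ptcd3, a pentatricopeptide-repeat protein on the small subunit, stood at 146, 144 and 137 CPM in controls and at 148, 163 and 165 CPM with EET. Its EET libraries lay above the controls, EET 1 by little, and its fold of 0.15 ± 0.07 was not called (adjusted p = 0.0762). Ptcd3 was the only one of these 4 in which EET 1 was the lowest EET library.

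In the small subunit 28 of 30 members rose, with a median fold of 0.89. After Chchd1 came Mrps21 at 1.5 ± 0.14, Mrps24 at 1.42 ± 0.10, Mrps18c at 1.41 ± 0.16 and Mrps33 at 1.34 ± 0.14. Mrps21 stood at 10.2, 13.2 and 10.6 CPM in controls and at 36.2, 34.8 and 25.2 CPM with EET, so that the lowest EET library was well above the highest control. Mrps18c, 78th of 81 members by control level per kilobase, had 4.52, 3.96 and 3.94 CPM in controls and 12.3, 12.1 and 8.70 CPM with EET. Mrps12, a protein of the decoding centre, rose by 1.13 ± 0.11, and Mrps22, which has no bacterial counterpart, by 0.53 ± 0.08.

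At the other end of the small subunit were Mrps2, Ptcd3, Mrps31 and Mrps18b. Mrps2 stood at 67.0, 63.8 and 66.6 CPM in controls and at 71.2, 72.4 and 68.8 CPM with EET. The groups did not overlap, but the lowest EET and the highest control library were close, and the fold of 0.11 ± 0.07 was not called (adjusted p = 0.234). Mrps31 rose by 0.23 ± 0.08 (adjusted p = 0.0365), from 32.9, 30.5 and 33.6 to 40.2, 37 and 36.5 CPM. Its call was lost without 5 of the 6 libraries left out in turn, with adjusted p-values of 0.0519 to 0.17. Mrps18b rose by 0.26 ± 0.08 (adjusted p = 0.0165), and this call was lost without control 3 (adjusted p = 0.0834) and without EET 1 (adjusted p = 0.0788).

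Mrps18a, Mrps18b and Mrps18c, which descend from one bacterial protein of the small subunit, differed in fold. Mrps18c rose by 1.41 ± 0.16, Mrps18a by 0.92 ± 0.11 and Mrps18b by 0.26 ± 0.08. Mrps18a, whose protein is in the large subunit, stood at 30.6, 29.5 and 26.1 CPM in controls and 59.5, 58.6 and 45.4 CPM with EET. Mrps18b stood at 38.0, 38.0 and 35.6 CPM and at 48.1, 44.3 and 41.6 CPM. Per kilobase of mRNA, the control levels of Mrps18a and Mrps18b were 32.5 ± 2.66 and 34.5 ± 1.26 CPM per kb, within their SDs of each other, and that of Mrps18c was 5.05 ± 0.399. Mrps18c shares 23.2% of its exonic bases with Gm43511 on the same strand, and Mrps18b 30.5% with an antisense gene, so their levels are less certain. Over its annotated principal transcript of 638 bp, Mrps18c was at 6.49 CPM per kb in controls. The differences between the 3 folds were not tested. The other members counted outside their names were Mrps30 of the large subunit, which rose by 0.70 ± 0.10, and Mrps36, which rose by 0.87 ± 0.11.

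In the large subunit 50 of 50 tested members rose, with a median fold of 0.84. The highest were Mrpl14 at 1.61 ± 0.19, Mrpl52 at 1.61 ± 0.13, Mrpl54 at 1.43 ± 0.11, Mrpl12 at 1.31 ± 0.10 and Mrpl28 at 1.30 ± 0.10. Mrpl12, a stalk protein that is also known to bind the mitochondrial RNA polymerase, had the highest level of these per kilobase of mRNA. It stood at 91.0, 74.1 and 78.1 CPM in controls and at 217, 215 and 170 CPM with EET, with means of 81.1 ± 8.85 and 200 ± 26.8 CPM (adjusted p = 1.01e-06). Mrpl11, at the base of the stalk, rose by 1.29 ± 0.11, from 26.9, 28.2 and 25.2 to 71.2, 71.3 and 54.0 CPM. Mrpl10, which holds the stalk to the ribosome, was among the lowest of the subunit at 0.48 ± 0.09, from 49.0, 39.3 and 40.5 to 63.6, 60.5 and 55.7 CPM. The EET libraries of all 3 stalk genes lay above their controls, and the differences between their folds were not tested.

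Mrpl14 stood at 5.02, 3.72 and 3.53 CPM in controls and at 15.3, 12.8 and 9.29 CPM with EET, and had the largest standard error of the family. Mrpl58, a peptidyl-tRNA hydrolase built into the large subunit that releases stalled chains, rose by 0.85 ± 0.13. Mrpl44, which has a ribonuclease III-like fold, rose by 0.62 ± 0.09, and Mrpl45, which helps dock the ribosome to the inner membrane, by 0.54 ± 0.08. The lowest members of the large subunit, besides Mrpl10, were Mrpl39 at 0.36 ± 0.08, Mrpl19 at 0.40 ± 0.08 and Mrpl38 at 0.45 ± 0.08. Mrpl39 stood at 55.9, 53.9 and 51.3 CPM in controls and at 72.2, 71.4 and 63.0 CPM with EET (adjusted p = 1.59e-03), so that even the lowest member of this subunit showed no overlap between the groups.

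Mrpl53 was the 1 member that was not tested. It had 0 counts in all 6 libraries, where 3 counts would be 0.0788 to 0.096 CPM. In the GENCODE annotation most of its exonic bases, 88%, are shared with Gm42688 on the same strand, which had 7 to 14 counts. Reads in shared exons may not be assigned to either gene, and this was not tested.

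**Figure D2:**
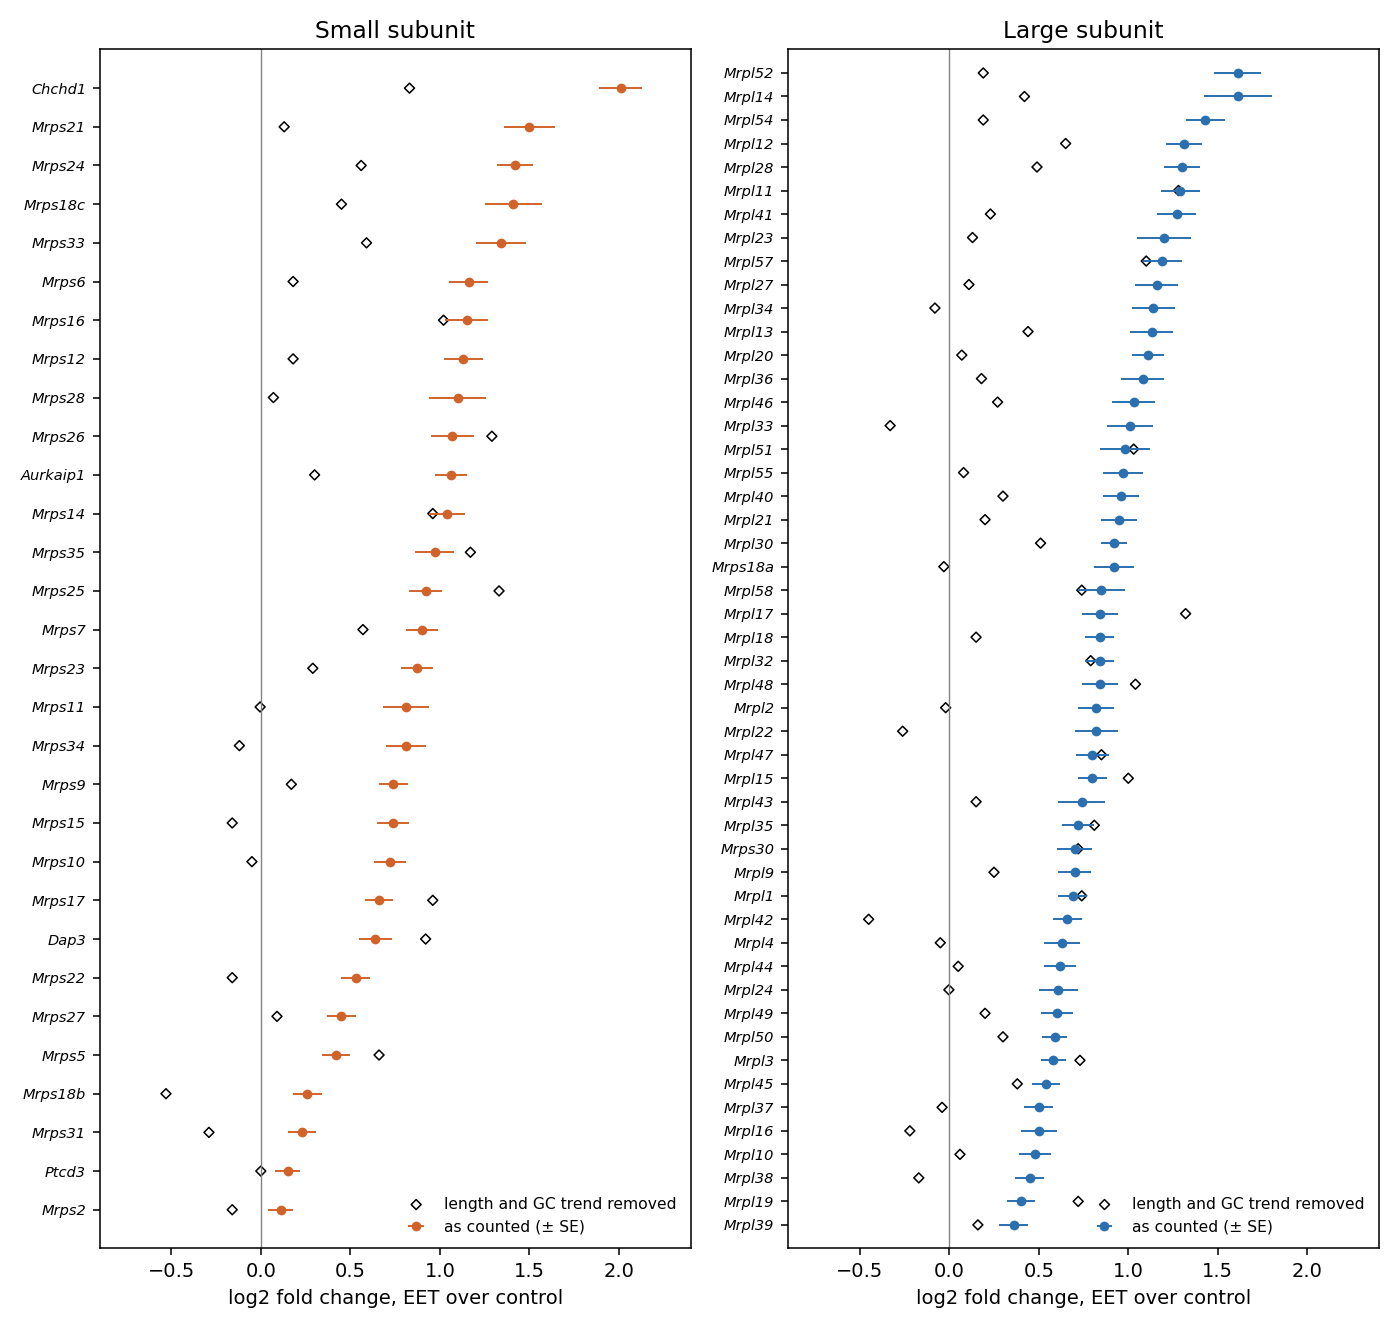
Filled points are log2 fold changes of EET over control with their standard error, by gene and subunit; open diamonds are the values of the same genes after a trend with mRNA length and GC content is removed. All filled points lie to the right of 0, while 20 of the diamonds drawn lie to the left of it.

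The 2 subunits had similar medians of the fold but different sums. The median of the small subunit exceeded that of the large one by 0.05, and by 0.03 when members were sorted by their symbols. The large subunit took 1722 ± 120 CPM in controls and 3035 ± 286 CPM with EET, 1.76 times as much. The small subunit took 1080 ± 50.8 and 1749 ± 137 CPM, 1.62 times as much.

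The ratio of small to large subunit sums was 0.615, 0.625 and 0.645 in controls and 0.566, 0.579 and 0.587 with EET. The groups did not overlap, with means of 0.628 ± 0.0153 and 0.577 ± 0.0106. The difference was smaller without Ptcd3 and Mrps2, the 2 members that were not called. Ptcd3 had the largest share of the summed CPM in controls. Without Ptcd3 the ratio was 0.536, 0.540 and 0.560 in controls and 0.520, 0.526 and 0.526 with EET, which still did not overlap. Without both genes it was 0.499, 0.503 and 0.519 in controls and 0.499, 0.503 and 0.501 with EET, and the groups overlapped. These 2 genes were left out after their values had been seen. They have the lowest folds of the small subunit, and no gene of the large subunit was left out. The difference had to shrink by this choice, so the overlap does not show where it comes from.

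**Figure D3:**
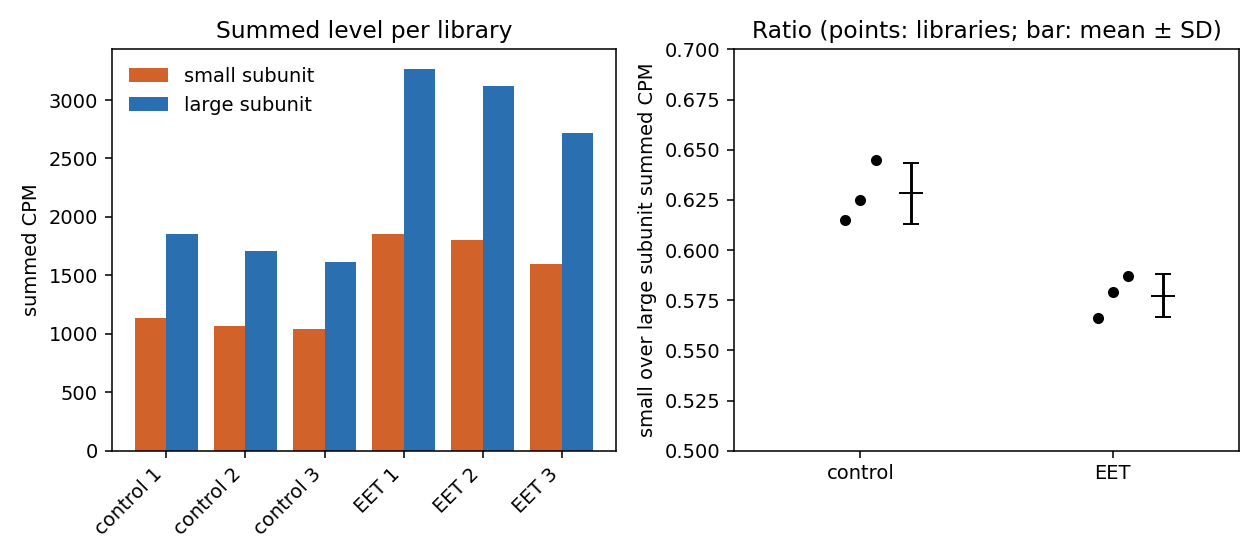
Left, summed CPM of the small (orange) and large (blue) subunit members in each library, on an axis from 0. Right, the ratio of the 2 sums in each library (points) with the mean and SD of each group; its axis runs from 0.5 to 0.7, and the EET libraries lie below the controls.

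Levels of different genes were compared per kilobase of the longest mRNA, over the controls. The median over the 81 members was 20.7 CPM per kb, 18.8 in the small and 22.1 in the large subunit. The range ran from 3.44 to 79.4 CPM per kb, a ratio of 23.1. The highest levels were those of Mrpl42 with 79.4 ± 6.30, Mrpl12 with 61.6 ± 6.72 and Ptcd3 with 55.2 ± 1.81 CPM per kb. The lowest were those of Mrpl57 with 3.44 ± 0.216, Mrps25 with 4.43 ± 0.196 and Mrpl43 with 4.99 ± 0.379 CPM per kb. Mrps25 and Mrpl43 share 69.8% and 33.4% of their exonic bases with an antisense gene, so their levels are less certain. Mrpl12 and Ptcd3 lay within the sum of their SDs of each other, as did Mrps25 and Mrpl43, while Mrpl42 and Mrpl57 stood apart from their neighbours by more. Per kilobase, the small to large ratio was 0.543 ± 0.0182 in controls and 0.516 ± 0.00635 with EET. Abundant members had smaller folds: across the 81 genes, Spearman's rho between the fold and the control level on the log2 CPM scale was -0.68. That value is a description, since both measures rest on the same control libraries and genes are not independent replicates.

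Folds across the whole transcriptome declined with the length of the mRNA, and many members have short ones. Over the 13802 protein-coding genes tested, Spearman's rho between the fold and mRNA length was -0.68. Over the 81 members it was -0.49, and with the length of the coding sequence it was -0.70 (-0.80 in the small and -0.65 in the large subunit). The slope of each library's deviation on length was 0.116, 0.238 and 0.246 log2 units per doubling of length in controls 1 to 3, and -0.272, -0.215 and -0.112 in EET 1 to 3. The median deviation of the members was -0.30, -0.41 and -0.52 in the controls and 0.57, 0.47 and 0.26 in the EET libraries. Within each group, the order of the libraries by slope, from low to high, was thus their order by member level, from high to low. The length trend and the treatment separate the libraries in the same way, and their parts cannot be told apart.

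The 24 members with an mRNA under 1000 bp all rose, with a median of 1.14. Of the 632 protein-coding genes of that length 73.4% rose, with a median of 0.97. The 23 members of 2500 bp and over differed more from genes of their length. Of these 22 rose, with a median of 0.84, beside 9.92% of 9039 protein-coding genes, whose median was -0.20. The exception was Ptcd3. The long group holds Mrps25, Mrpl17, Mrpl19, Mrps17 and Dap3, with longest annotated mRNAs of 6073, 7300, 5000, 5061 and 4760 bp. The coding sequences of the first 4 have 513, 528, 876 and 360 bp, so most of each of these annotated mRNAs is untranslated. Which transcripts the cells made was not tested. The annotated principal transcript of Mrps17, at 2182 bp, is under the 2500 bp of this group, while in the others named it has the length given. No test of the members against genes of their length was made.

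**Figure D4:**
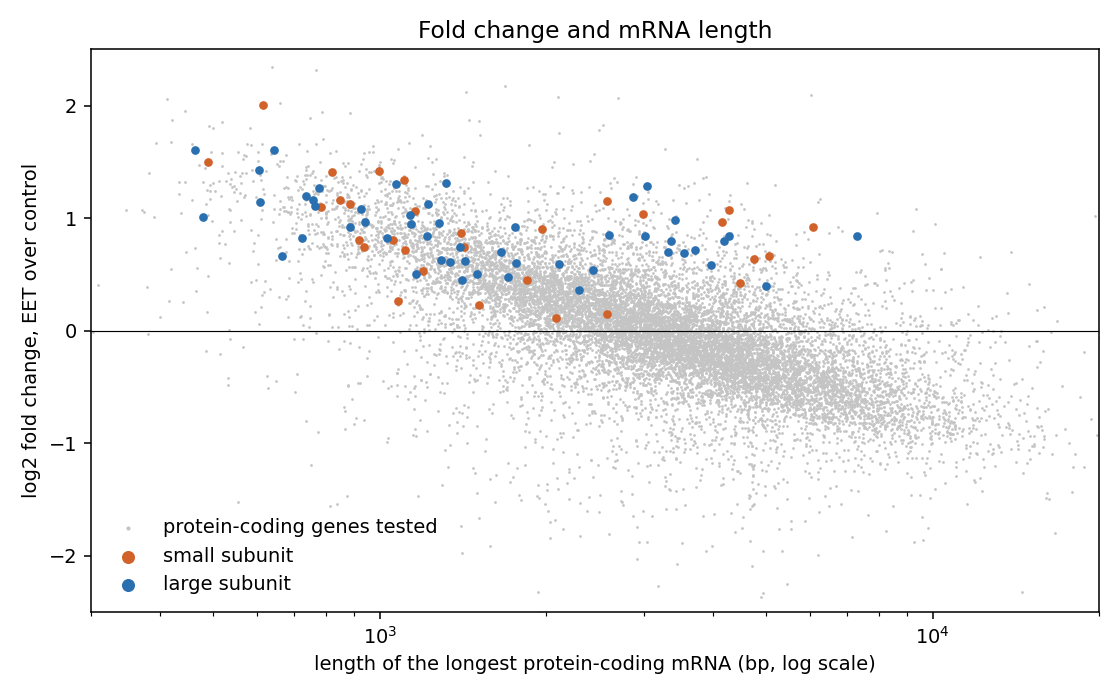
Log2 fold change of EET over control against the length of the longest protein-coding mRNA (bp, log axis) for protein-coding genes (grey) and for members of the small (orange) and large (blue) subunit. The grey cloud falls with length, and the members from 2500 bp on lie above most of it, except Ptcd3 at 0.15; a few grey genes fall outside the axes.

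The fit was repeated with each library's trend on mRNA length and GC content removed. Of the 81 members, 44 were then higher, 8 lower and 29 not called, with a median of 0.20 beside -0.02 over all protein-coding genes. In that fit 16.3% of genes were called higher and 18.3% lower. The 44 higher members had all been called higher in the counts as deposited. In the small subunit 16 of 30 were higher and 3 lower, with a median of 0.23, and in the large subunit 28 of 50 were higher and 5 lower, with a median of 0.22. The highest values were those of Mrps25 at 1.33, Mrpl17 at 1.32, Mrps26 at 1.29 and Mrpl11 at 1.28, which have mRNAs of 6073, 7300, 4278 and 3045 bp. Among members with large folds in the counts as deposited, Chchd1 was at 0.83 and Mrpl12 at 0.65 after the removal, both lower than before but still called. Dap3 was called at 0.92, above its earlier 0.64, and Mrpl57 was called at 1.10, Mrpl58 at 0.74 and Mrps30 at 0.72. Other members named above were no longer called: Mrpl52 at 0.19, Mrpl54 at 0.19, Mrps12 at 0.18, Mrpl43 at 0.15, Mrps21 at 0.13, Mrpl10 at 0.06 and Mrpl44 at 0.05. Of the 24 members under 1000 bp, 5 were called higher and 3 lower.

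The sign turned in 21 members. Those called lower after the removal were Mrps18b at -0.53, Mrpl42 at -0.45, Mrpl33 at -0.33, Mrps31 at -0.29, Mrpl22 at -0.26, Mrpl16 at -0.22, Mrpl38 at -0.17 and Mrps2 at -0.16. The other 13, from -0.21 in Mrps36 to -0.00023 in Ptcd3, were not called. Mrpl42, a protein of the large subunit, shows how much the removal moves a short gene. With an mRNA of 666 bp, it stood at 55.5, 55.0 and 48.0 CPM in controls and at 89.2, 85.8 and 76.0 CPM with EET, a fold of 0.66 ± 0.08 with no overlap. The number of members called lower with the trend removed was 4 without control 2, 5 without EET 2 and at most 10 over the 6 fits that each left out 1 library. After the removal rho between the fold and mRNA length was 0.63 over the members, and with coding length it was -0.11. The remaining values therefore still follow mRNA length within the family, in the opposite direction.

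Members with a neighbouring gene on the other strand were set beside that gene, as a description. For 20 members the annotation has a gene that starts within 1000 bp upstream on the other strand. Of these partners 7 rose, 3 fell and 10 were not called, beside 24.6% higher and 23.3% lower of all tested genes. Their median fold was 0.18 beside 0.83 for their members. The member had the larger fold in 18 of 20 pairs, and in 13 of 20 with the trend removed. The family was chosen by its folds and the partners were not, so these counts follow in part from that choice. With the trend removed 5 partners were higher, 3 lower and 12 not called, beside 16.3% higher and 18.3% lower of all genes in that fit. Mrpl51 rose by 0.98 ± 0.14 while Ncapd2, a condensin subunit whose start lies 100 bp away, fell by 0.22 on the log2 scale, from 309 ± 7.68 to 265 ± 13.5 CPM. After the trend removal Mrpl51 was at 1.03, and Ncapd2, at 0.04, was not called. Mrps18c rose by 1.41 ± 0.16 beside Helq, a DNA helicase, at -0.03 ± 0.09. Mrps18b rose by 0.26 ± 0.08 beside Ppp1r10, a regulatory subunit of protein phosphatase 1, at -0.45 ± 0.07. With the trend removed the order of this pair turned, with Mrps18b at -0.53 and Ppp1r10 at -0.25, both called lower. The exceptions were Mrpl49, at 0.60 beside Fau, a cytosolic ribosomal protein gene, at 1.46 ± 0.11, and Mrpl36, at 1.08 beside Ndufs6, a complex I subunit gene, at 1.42 ± 0.14. Fau and Ndufs6 have short mRNAs of 736 and 757 bp, while those of Ncapd2, Helq and Ppp1r10 have 4629, 3689 and 4255 bp.

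**Figure D5:**
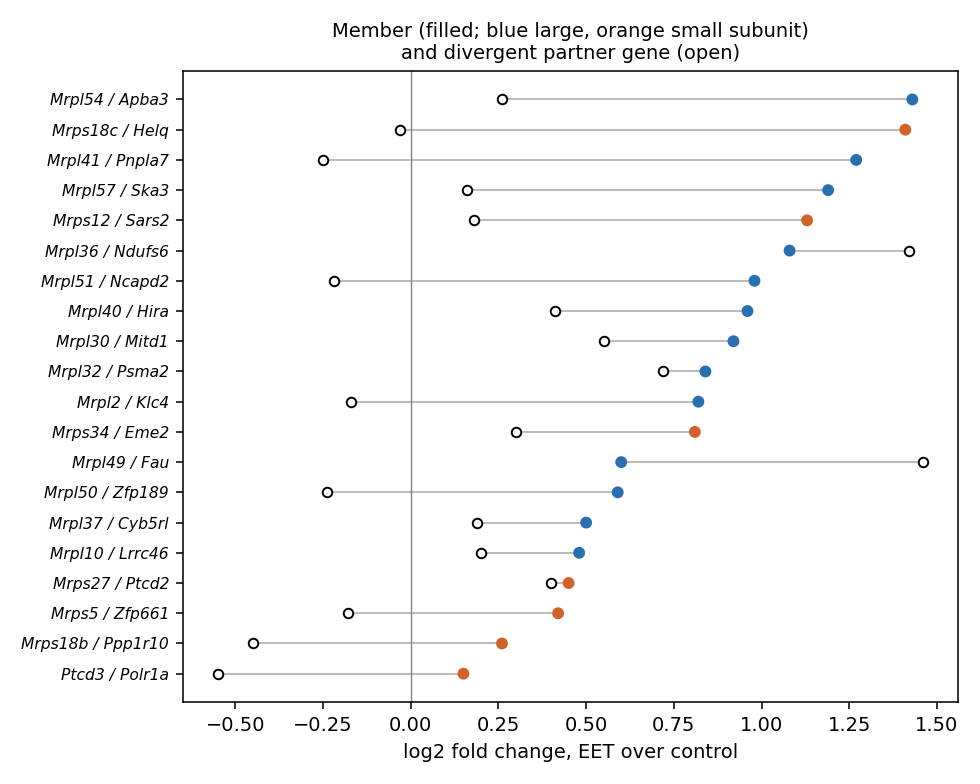
Log2 fold change of EET over control for 20 members (filled; orange small, blue large subunit) and for the gene that starts next to each on the other strand (open), joined by a line. The filled point lies to the right in 18 pairs, and to the left in the pairs with Fau and Ndufs6.

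The rRNAs of the ribosome, as far as poly(A) selection kept them, had unlike values. The rRNA of the small subunit, mt-Rnr1, stood at 167, 169 and 164 CPM in controls and 375, 373 and 292 CPM with EET, a fold of 1.05 ± 0.09. The rRNA of the large subunit, mt-Rnr2, stood at 487, 580 and 558 CPM and at 585, 597 and 636 CPM, a fold of 0.16 ± 0.07 that was not called (adjusted p = 0.087). The 2 genes have 955 and 1582 exonic bases, and neither was in the fit with the trend removed. Protein-coding genes with mRNAs of 750 to 1000 bp had a median fold of 0.91, those of 1500 to 2500 bp one of 0.30. The difference between the folds of the 2 rRNAs was not tested. Gadd45gip1, whose product is a large subunit protein although its name does not fall under the rule, rose by 1.08 ± 0.17, and to 0.92 with the trend removed.

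Genes that build and serve the ribosome had lower medians than those of its proteins, a difference that was not tested. Their mRNAs were also longer, with medians of 2275 bp for assembly factors and 2588 bp for translation factors and mRNA regulators. The median was 3755 bp for regulators of mitochondrial biogenesis and 1328 bp for the members. Of 30 genes for assembly factors, which modify the rRNA or help the subunits form, 21 rose and 0 fell in edgeR, with a median of 0.37. With the trend removed 8 were higher and 2 lower, with a median of 0.08. Rcc1l, an assembly factor, rose by 0.63 ± 0.09, from 33.7, 29.3 and 29.4 to 48.3, 46.2 and 48.2 CPM. Ngrn, which supports the rRNA of the large subunit, rose by 0.72 ± 0.11, from 15.6, 13.1 and 14.1 to 24.5, 25 and 21 CPM. The EET libraries lay above the controls in both genes. Rcc1l was also higher with the trend removed, at 0.39, whereas Ngrn, at 0.08, was not called.

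Of 19 tested genes for translation factors and mRNA regulators, 8 rose and 1 fell, with a median of 0.20. With the trend removed 3 of 18 were higher and 3 lower, with a median of 0.08 beside 0.20 for the members. Mtres1, a factor that rescues stalled mitochondrial ribosomes, rose by 1.00 ± 0.10. Tsfm, the exchange factor for the mitochondrial elongation factor Tu, rose by 0.76 ± 0.10, from 30.3, 24.7 and 27.3 to 45.5, 50.7 and 43.4 CPM, and at 0.11 it was not called with the trend removed. The gene that fell was Lrpprc, which stabilises mitochondrial mRNAs, by 0.36 on the log2 scale, and it was also lower with the trend removed at -0.13, but not called at -0.11 with the length of the principal transcript.

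Of 19 genes for regulators of mitochondrial biogenesis, 3 rose and 6 fell, with a median of 0.07. With the trend removed 4 were higher and 4 lower, with a median of -0.02. Tfam, which packages mitochondrial DNA and starts its transcription, rose from 55.3, 53.4 and 52.6 to 84.4, 88.1 and 80.1 CPM, a fold of 0.65 ± 0.07, and was higher at 0.83 with the trend removed. Hcfc1, a transcriptional coregulator, fell from 329, 428 and 417 to 202, 198 and 252 CPM, a fold of -0.85 ± 0.11, or -0.25 with the trend removed. The mRNAs of the factors whose motifs were searched, Nrf1 at 0.07 and Yy1 at -0.0074, were not called in the counts as deposited, and Gabpa fell by 0.28 on the log2 scale. With the trend removed Gabpa, at -0.02, was not called and Yy1 was higher at 0.44. Nrf1 was then higher at 0.17, but lower at -0.25 with the length of the principal transcript. These 3 genes are named outside the rule for named genes because of the motif search.

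Other large families of small proteins also rose in most of their members in the counts as deposited. Of 87 tested cytosolic ribosomal protein genes 82 rose and 0 fell in edgeR, with a median of 1.14. Of 81 tested nuclear genes of respiratory chain subunits 74 rose and 0 fell, with a median of 1.07. With the trend removed the medians were 0.28 and 0.14, beside 0.20 for the mitochondrial ribosomal proteins. The median mRNA was 942 bp long for the cytosolic ribosomal proteins, 861 bp for the respiratory chain and 1328 bp for the members. No test set these families against each other.

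Some counts are less certain than their errors say. Of the 82 members 46 share no exonic base with another gene of the annotation, 18 share over 10%, and 30 share bases with an antisense gene. The sources used here do not state whether the counting used strand. Reads in bases shared with an antisense gene may thus have been mixed between the genes or assigned to neither, which was not tested. Slirp, in the list of translation factors and mRNA regulators, shares 97.8% of its exonic bases with antisense genes. It had 0 to 6 counts in a library and was not tested. The largest antisense share among members named here was that of Mrps25 with Nr2c2, 69.8% of its exonic bases, followed by Mrps34 with 63.4%, Mrpl19 with 36.0%, Mrpl43 with 33.4% and Mrps18b with 30.5%. In Gadd45gip1 it was 42.0%. Reads could also be split with processed pseudogenes. The 6 rows named as pseudogenes of members had at most 16 counts in a library.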

How the data were processed

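The deposited table holds whole-number read counts per gene symbol and library, with no normalization by the authors visible in it. Per the labels' protocols, RNA with poly(A) tails was selected and fragmented, dUTP was built into the second cDNA strand, and both fragment ends were read. The submitters' processing notes name FastQC, cutadapt, DESeq2 and the build GRCm38. The sources used here name no aligner, counting tool or strand setting. Counts of 11 to 50 were even in 61.3 to 62.1% of cases in controls and 65 to 65.6% with EET, so both mates of a fragment may have been counted, and counts divided by 2 were also fitted.

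The 3 EET and 3 control libraries were compared with the quasi-likelihood test of edgeR 4.0.16 under R 4.3.3 (filterByExpr, TMM factors, robust glmQLFit, Benjamini-Hochberg over all tested genes), without a block, and the code was tested on simulated counts. The members, lists and rules were chosen with earlier results of these data known. Named were the 5 highest and 4 lowest folds per subunit, members fixed by role, the 3 highest and 3 lowest levels per kb, members not tested, members whose sign turned, and the 2 genes of lowest p per list. Lengths, GC content and exon overlaps come from GENCODE M21 on GRCm38, in which 53292 symbols were found. The longest protein-coding transcript gave the mRNA length, with the principal transcript as an alternative. Each library's trend was fitted by loess (span 0.3) on log2 length and GC content over protein-coding genes and given to edgeR as offsets. Divergent genes start within 1000 bp of a member, with an overlap of up to 50 bp. Other alternatives were RLE scaling, library totals, other filters, DESeq2 1.42.0, the replicate number as a block, subunits by symbol, and leaving out each library.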

Additional observations from a re-analysis of the deposited data

How the results depend on the processing

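Under RLE scaling, library totals, no filter on low counts, a 5 CPM minimum in 3 or more libraries, DESeq2, counts divided by 2, and without each library in turn, 77 to 79 members rose and 0 fell. The trend removal was the setting that changed the counts. It left 44 members higher, 8 lower, a median of 0.20, 4767 genes called in all against 7716, and a small minus large median of 0.02 against 0.05. With principal transcript length, an alternative chosen after seeing the data, these were 46, 5, 0.25, 4769 and 0.01. Of the members, 42 were higher in the counts as deposited and under both length measures. The cause of the trend was not tested. Without each library in turn, the trend-removed fit called 36 to 44 members higher and 4 to 10 lower, and the small minus large median ran from 0.01 (without control 2) to 0.06 in the counts as deposited. The difference of the small to large ratio, -0.05, was -0.03 per kb, -0.02 without Ptcd3 and -0.0061 without Ptcd3 and Mrps2.

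No label says that the replicate numbers pair the libraries, and same-numbered libraries had correlations of their deviations of -0.00, -0.05 and 0.01. In both groups, however, the slope on length rose and the median deviation of the members fell with the replicate number. With so few libraries per group, these values cannot show whether the libraries are paired. With the replicate block 80 members rose, 8321 genes were called and Ptcd3 was higher (adjusted p = 0.0307), as it was without EET 1 (adjusted p = 0.038). With the replicate block and the trend removed, 45 members were higher and 10 lower, the median was 0.21, the small minus large median 0.02, and 5071 genes were called. Mrps18b and Mrps31 were not called with library totals (adjusted p = 0.0636 and 0.146), nor Mrps31 without the filter (adjusted p = 0.0607).

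With the trend removed, the sign turned in Mrps18b (-0.53), Mrpl42 (-0.45), Mrpl33 (-0.33), Mrps31 (-0.29), Mrpl22 (-0.26), Mrpl16 (-0.22), Mrps36 (-0.21), Mrpl38 (-0.17), Mrps2 (-0.16), Mrps15 (-0.16), Mrps22 (-0.16), Mrps34 (-0.12), Mrpl34 (-0.08), Mrpl4 (-0.05), Mrps10 (-0.05), Mrpl37 (-0.04), Mrps18a (-0.03), Mrpl2 (-0.02), Mrps11 (-0.0041), Mrpl24 (-0.0020) and Ptcd3 (-0.00023). With principal transcript length it turned in Mrps18b (-0.48), Mrpl42 (-0.39), Mrpl33 (-0.26), Mrps31 (-0.24), Mrpl22 (-0.20), Mrpl16 (-0.17), Mrps36 (-0.15), Mrpl38 (-0.15), Mrps2 (-0.13), Mrps15 (-0.11), Mrps22 (-0.11), Mrps34 (-0.09), Mrps10 (-0.07), Mrpl4 (-0.03), Mrpl34 (-0.02) and Mrpl37 (-0.0061). The lowest count of a tested member in a library was 111.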
